A study of Mus musculus with 28 samples.

Results

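The guanylate binding proteins are a family of interferon-induced large GTPases, and the genes described here are the 10 mouse genes Gbp2, Gbp2b, Gbp3, Gbp4, Gbp5, Gbp6, Gbp7, Gbp8, Gbp9 and Gbp10. They were chosen by name. Of the 10, 7 had a row in each of the study's 2 expression tables, Gbp2, Gbp2b, Gbp3, Gbp4, Gbp7, Gbp8 and Gbp9, among 12721 genes in the first table and 12948 in the other. Gbp5, Gbp6 and Gbp10 had no row in either table and were not analysed here.

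The study measured RNA of MC38, an established mouse colon adenocarcinoma line, after exposure to inflammatory cytokines or to OT1 T cells, which are CD8 T cells with a transgenic receptor for an ovalbumin peptide. The in vitro table held 10 libraries, with 2 each of untreated MC38, MC38 given TNF for 6 h, MC38 given IFNG (interferon gamma) for 6 h, MC38 given both for 6 h, and MC38 given supernatant from a co-culture, for which no time was recorded. The co-culture table held 9 libraries, with 3 each of MC38 alone, of MC38 kept for 6 h with OT1 T cells plus an isotype antibody as control, and of MC38 kept for 6 h with OT1 T cells plus an antibody to the inhibitory receptor PD1. All cells were grown in DMEM with fetal calf serum and antibiotics, cytokine doses were not given, and the 9 libraries of OT1 T cells were not analysed here. The labels state neither whether the MC38 cells carried ovalbumin nor whether the replicates of a group were separate cultures, so the p-values rest on a spread between libraries that may be only technical.

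Guanylate binding proteins are made after interferon signalling activates transcription factors, IRF1 among them. The proteins bind GTP, assemble on the membranes of vacuoles and bacteria inside the cell, and help to break them open, which can engage caspase-11 and the pore-forming protein gasdermin D. Tumour cells also make them when T cells release interferon gamma, and they are widely used as readouts of that signal.

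In the GRCm38 annotation the family lay in 2 clusters of protein-coding genes. On the plus strand of chromosome 3, Gbp5 (142493978 to 142522344), Gbp7 (142530342 to 142550149), Gbp3 (142560026 to 142573209), Gbp2b (142594847 to 142619179) and Gbp2 (142620602 to 142638008) lay side by side. On the minus strand of chromosome 5 lay Gbp8 (105014150 to 105139540), Gbp9 (105077630 to 105139539), Gbp4 (105115767 to 105139586), Gbp10 (105215699 to 105239533) and Gbp6 (105270702 to 105293698). Gbp4, Gbp8 and Gbp9 overlap: they shared 60 or 61 exonic bases at their 5′ ends, which is 0.814% of the exonic bases of Gbp4, 1.77% of those of Gbp8 and 1.16% of those of Gbp9. The libraries read the 3′ end of transcripts, and there, in the last 500 bases, the 7 measured genes shared no 50-base stretch with another member, apart from Gbp4, where 6.43% of such stretches also occurred in Gbp6. Gbp6 and Gbp10 shared 77.8% and 88.9% of theirs, mostly with each other, so reads from most of these 3′ ends could not be told apart between the pair. Gbp5, also without a row, shared none, and the cause of the missing rows was not tested.

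The promoters of the 4 measured chromosome 3 genes are shown because all 4 rose with IFNG and because their upstream sequence holds motifs bound by factors of the interferon pathway. RefSeq sequence (GRCm38.p6) was matched for 5 of the 10 genes, Gbp5, Gbp7, Gbp3, Gbp2b and Gbp2. Each line gives the 250 bases before an annotated transcription start, 5′ to 3′ on the plus strand, with Gbp3 shown at the first of its 2 starts. Capitals mark matches, on either strand, to GAAA followed after 2 free bases by GAAA, the core of the interferon-stimulated response element bound by IRF factors, or to TTCNNNGAA, the gamma-activated site of genes induced by interferon gamma. The windows are chr3:142620413-142620662 for Gbp2, chr3:142594597-142594846 for Gbp2b, chr3:142559794-142560043 for Gbp3 and chr3:142530086-142530335 for Gbp7.
Gbp2: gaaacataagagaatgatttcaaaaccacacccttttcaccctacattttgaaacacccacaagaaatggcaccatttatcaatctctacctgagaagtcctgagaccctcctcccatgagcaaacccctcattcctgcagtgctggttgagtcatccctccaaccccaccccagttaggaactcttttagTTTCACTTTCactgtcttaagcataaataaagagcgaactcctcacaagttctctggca
Gbp2b: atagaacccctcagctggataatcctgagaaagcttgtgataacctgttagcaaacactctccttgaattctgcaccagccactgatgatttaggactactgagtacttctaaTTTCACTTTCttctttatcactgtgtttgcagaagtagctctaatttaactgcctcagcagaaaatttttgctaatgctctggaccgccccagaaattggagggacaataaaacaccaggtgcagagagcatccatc
Gbp3: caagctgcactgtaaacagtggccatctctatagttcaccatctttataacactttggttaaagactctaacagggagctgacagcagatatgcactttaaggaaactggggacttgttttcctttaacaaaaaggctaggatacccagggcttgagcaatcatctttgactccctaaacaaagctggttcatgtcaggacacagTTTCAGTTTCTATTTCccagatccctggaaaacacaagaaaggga
Gbp7: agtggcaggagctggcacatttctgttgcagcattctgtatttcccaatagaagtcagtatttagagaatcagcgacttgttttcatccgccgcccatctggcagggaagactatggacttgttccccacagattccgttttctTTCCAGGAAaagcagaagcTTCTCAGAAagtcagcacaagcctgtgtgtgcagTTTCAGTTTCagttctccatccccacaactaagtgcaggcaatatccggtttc

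The 4 promoters were shown partly because they hold interferon motifs, so the count of matches among them is a description only. The response element core was present upstream of all 4 genes, in Gbp3 at the first start only. It lay 59 to 50 bases before the start of Gbp2, 137 to 128 bases before that of Gbp2b and 53 to 44 bases before that of Gbp7. The first start of Gbp3 had a pair of overlapping matches, 45 to 36 and 39 to 30 bases before it. The gamma-activated site was found in Gbp7, 106 to 98 and 87 to 79 bases before the start, and in Gbp5, but not in these windows of Gbp2, Gbp2b or Gbp3. The NF-kB consensus, the motif of the main TNF-activated factors, matched only in Gbp5, 77 to 68 bases before its start. Gbp5 also held the response element core 165 to 156 bases before its start, and the window at the second start of Gbp3 held none of the 3 motifs. Over 32851 RefSeq promoters of the same length, 2.98% held the response element core, 7.02% the gamma-activated site, 7.25% the NF-kB consensus, 0.332% both interferon motifs and 0.0304% all 3. A match describes letters only and is not evidence of binding.

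**Figure D1:**
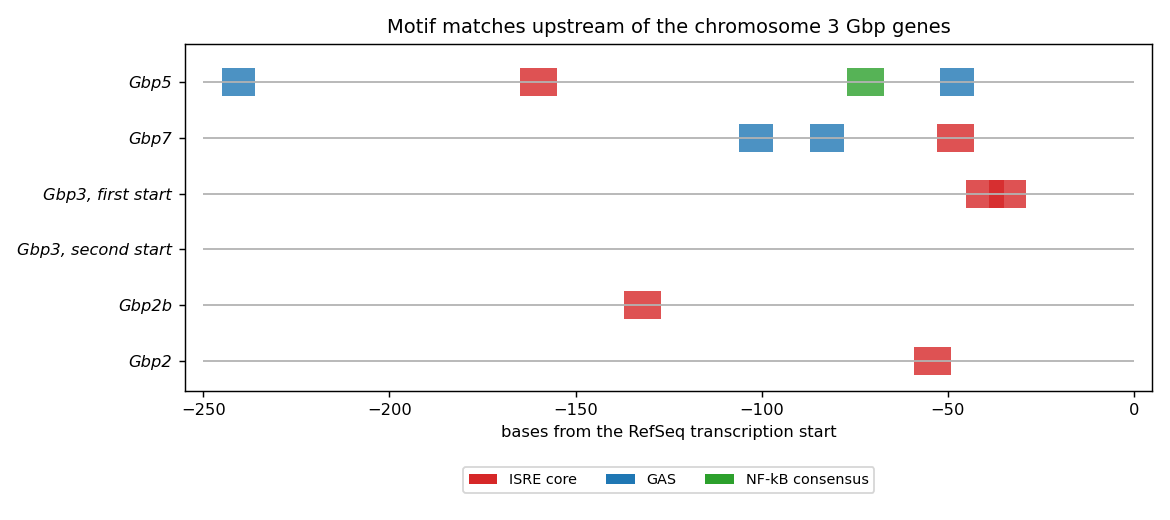
Positions of motif matches in the 250 bases before each RefSeq start of the chromosome 3 genes, with distance from the start in bases on the x axis and 1 line per start. The response element core (red) appears in 5 of the 6 windows, the gamma-activated site (GAS, blue) in Gbp5 and Gbp7, and the NF-kB consensus (green) in Gbp5 alone.

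Expression is given as log2 CPM, as the authors normalized it within each table, so that 1 unit is a doubling of the normalized value. Exact values recur across libraries: 1.21815 is both the lower Gbp4 value with TNF and the lower Gbp8 value with both cytokines. The values are therefore not only reads scaled to one total per library, and the further step was not identified here. The 2 tables were normalized separately, and levels in one are not compared with levels in the other. Depth, estimated from the steps between low values, ran from 3360000 to 11200000 reads per library in vitro and from 3730000 to 11000000 in co-culture. As a check on the cells, the mesenchymal gene Vim was at 9.69 to 10.45 log2 CPM in vitro. Of the epithelial genes, Krt8, Krt18, Krt7, Krt19 and Epcam had no row there, and Cdh1 ran from −1.95 to 2.97 log2 CPM. In co-culture 6 of these 7 markers had a row, all but Krt7, and 4 of the 6 reached the level for testing. The 2 of 7 macrophage and dendritic cell markers with a row in vitro summed to 1.21 to 8.24 CPM. Of 18 T cell markers, 2 had a row in vitro, summing to 0.217 to 6.56 CPM. In co-culture, 16 of the 18 had a row. Their sum was 4.69 and 4.82 CPM in libraries 1 and 2 of MC38 alone and 68.5 CPM in library 3, against 165.6 to 204.8 CPM with isotype and 163.9 to 191.6 CPM with anti-PD1. Library 3 of MC38 alone thus stood apart from its group. The labels of the third anti-PD1 library contradict each other: its title and treatment read untreated, but its description names the PD1 column, by which it was placed. The description of the second isotype library reads OT2 where the others read OT1. The comparisons of co-culture with MC38 alone are also given without each of these libraries, left out 1 at a time.

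IFNG raised 5 of the 7 measured genes, all 4 of the chromosome 3 cluster and Gbp4. Between 4.73-fold (Gbp3) and 9.79-fold (Gbp2b) more RNA was found than in untreated cells, at n = 2 per group. This count stands beside 0.354% of the 12720 genes tested that passed the same threshold, an adjusted p under 0.05 from limma with Benjamini-Hochberg adjustment over all genes. The median log2 change of the 7 was 2.77, and that of all genes was 0.0446.

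Gbp7, a member known for its part in oxidative and autophagic killing of microbes, was at 3.61 and 3.55 log2 CPM in the untreated libraries and at 6.77 and 6.80 after IFNG. The groups did not overlap, and the replicates of each lay within 0.1 of each other. The log2 change was 3.21 ± 0.16 (SE), a 9.22-fold rise with an adjusted p of 2.22e-05. Gbp2, which coats pathogen vacuoles and carries a lipid anchor, was at 2.83 and 3.04 log2 CPM without treatment and at 5.70 and 5.72 after IFNG. Its change of 2.77 ± 0.17 had an adjusted p of 0.000153.

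Gbp2b, the mouse gene also called Gbp1 and likewise lipid-anchored, was at 0.21 and 0.16 log2 CPM in untreated cells, about 7 and 8 reads. After IFNG it was at 3.44 and 3.51. Both treated libraries stood far above both controls, with a log2 change of 3.29 ± 0.32 and an adjusted p of 0.00181. Gbp3, its neighbour in the cluster, went from 1.89 and 2.14 to 4.33 and 4.18 log2 CPM, a change of 2.24 ± 0.22 (adjusted p = 0.00198).

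Of the chromosome 5 members, Gbp4 passed the threshold and Gbp8 and Gbp9 did not. Gbp4 was at 0.66 and −0.50 log2 CPM in untreated cells, about 10 and 5 reads, and at 3.10 and 3.12 after IFNG. Its log2 change was 3.03 ± 0.36 with an adjusted p of 0.00719, which became 0.0893 without the first IFNG library and 0.0744 without the second. Gbp9 was at 0.52 and −0.50 log2 CPM before and at 1.56 and 2.20 after IFNG. The 2 groups did not overlap, but its difference of 1.87 ± 0.46 had an adjusted p of 0.292. Gbp8 lay at the limit of detection, at −0.89 and −3.60 log2 CPM in untreated cells and −1.30 and −0.54 with IFNG. These values correspond to 0 to 5 reads, the groups overlapped, and a difference was not detectable at this depth (adjusted p = 0.66).

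**Figure D2:**
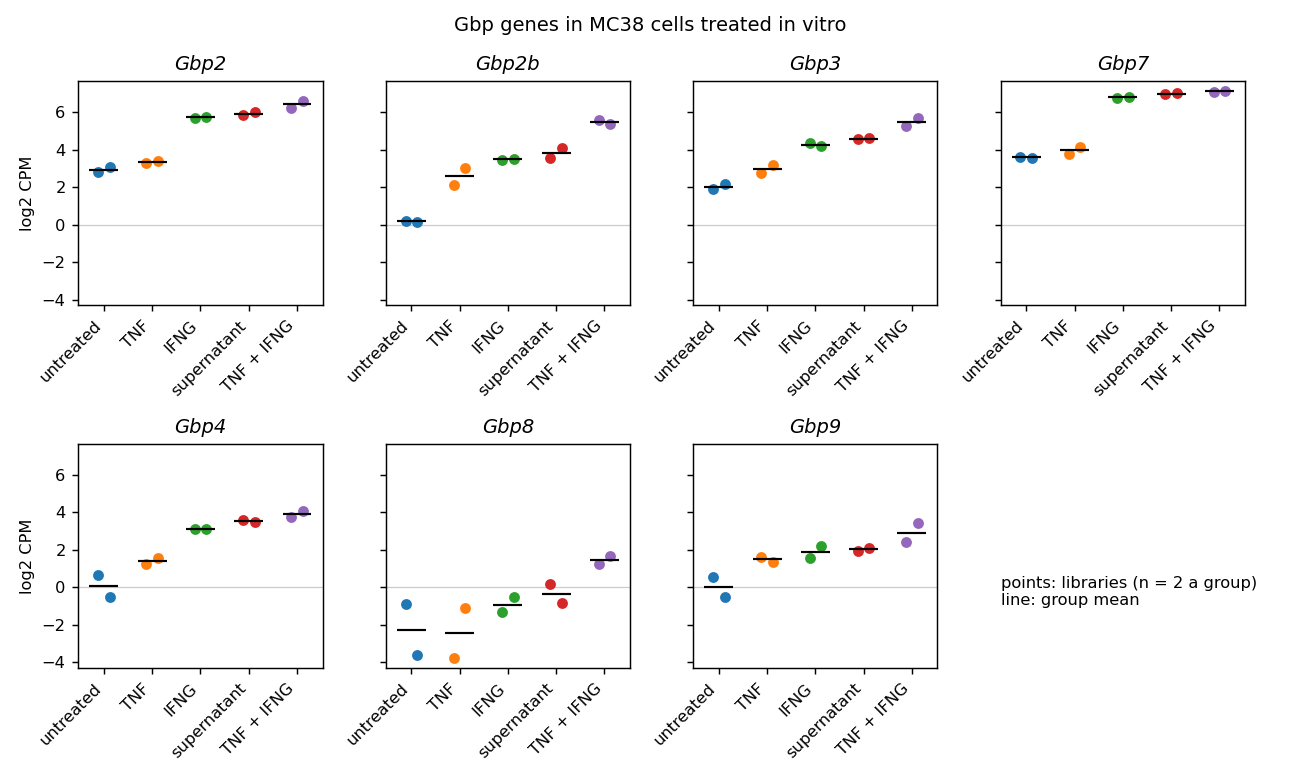
Log2 CPM (y axis) of the 7 measured genes in each in vitro library, by treatment (x axis), with points for libraries (n = 2 a group) and a line at the group mean. Gbp2 and Gbp7 step up mainly between TNF and IFNG, Gbp2b is already at 2.10 and 3.04 with TNF, and Gbp8 stays near the detection limit except with both cytokines.

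TNF, a cytokine that acts mainly through NF-kB, raised 1 of the 7 genes, Gbp2b, beside 0.275% of all genes tested. Gbp2b was at 2.10 and 3.04 log2 CPM with TNF, against 0.21 and 0.16 in untreated cells. The TNF libraries differed from each other more than in any other member of this group except Gbp8, and both lay above both controls. The log2 change was 2.39 ± 0.32, which is 5.23-fold, with an adjusted p of 0.0225, and it ranked 57th of the 12720 genes tested. This call was near the threshold: the adjusted p was 0.121 when TNF library 2 was left out, 0.160 and 0.178 when untreated library 1 or 2 was, 0.0595 and 0.0586 when IFNG library 1 or 2 was, and 0.102 when only the untreated and TNF groups were fitted.

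In the other 6 genes TNF gave smaller or less certain differences. Gbp3 was at 2.73 and 3.17 log2 CPM with TNF, a difference of 0.93 ± 0.22 (adjusted p = 0.256), and Gbp4 at 1.22 and 1.56, a difference of 1.31 ± 0.36 (adjusted p = 0.422). Gbp9 was at 1.61 and 1.35, a difference of 1.47 ± 0.46 (adjusted p = 0.577). Gbp2, at 3.27 and 3.40 log2 CPM, and Gbp7, at 3.76 and 4.15, differed from untreated by 0.40 ± 0.17 and 0.38 ± 0.16, with adjusted p-values of 0.79 and 0.768. Gbp8 was at −3.76 and −1.11, about 0 and 3 reads, and overlapped the controls. In 6 of the 7 genes, all but Gbp8, both TNF libraries lay above both untreated ones, as they did in 21.5% of all genes. Before adjustment, 6 of the 7 genes had a p under 0.05, as did 797 of all 12720 genes, and the median difference of the 7 was 0.93 against 0.0128 over all genes.

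TNF and IFNG together gave the highest mean of the 5 groups for each of the 7 genes, though Gbp8 met the filter for testing only through this group. Of the 7, 6 passed the threshold, beside 9.02% of all genes (1147). That number over all genes rested on single libraries: it was 88 without the second untreated library, 121 without the first and 2165 without the second supernatant library, which lies outside the contrast but enters the shared estimate of spread. Gbp2b was at 5.55 and 5.37 log2 CPM, a rise of 5.28 ± 0.32 or 38.7-fold (adjusted p = 6.51e-05), and ranked 10th of all genes by log2 change. Gbp7 was at 7.07 and 7.10, Gbp2 at 6.21 and 6.58 and Gbp3 at 5.27 and 5.66. Their rises against untreated cells were 11.4-fold, 11.0-fold and 10.9-fold, with adjusted p-values of 1.1e-05, 2.07e-05 and 9.38e-05.

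On chromosome 5, Gbp4 was at 3.76 and 4.08 log2 CPM with both cytokines, a rise of 3.84 ± 0.36 (adjusted p = 0.00102). Gbp9 was at 2.42 and 3.41 and rose by 2.90 ± 0.46 (adjusted p = 0.0139). That p was 0.0524 without the second library with both cytokines, 0.105 without the second untreated library and 0.0641 when only these 2 groups were fitted. Gbp8 was at 1.22 and 1.69 log2 CPM, about 16 and 11 reads, against about 3 and 0 reads in the untreated libraries. It was above all other in vitro libraries, but with an adjusted p of 0.0694 it missed the threshold.

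**Figure D3:**
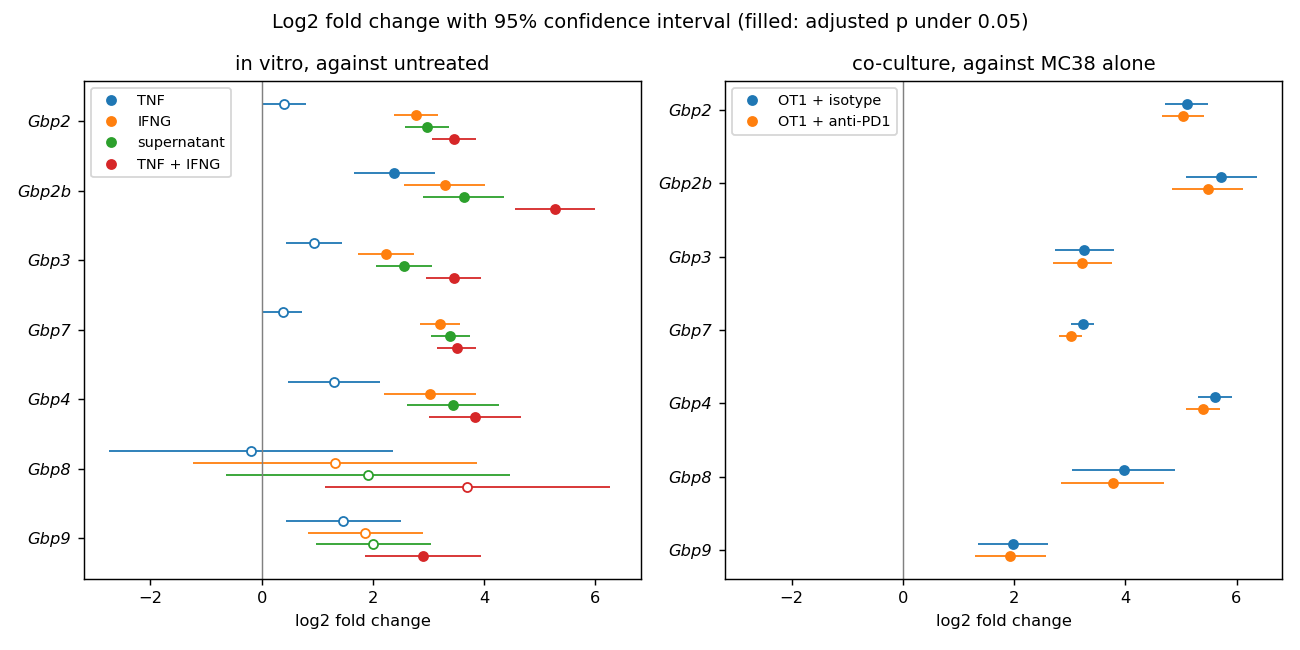
Log2 fold change (x axis) with its 95% confidence interval for the 7 measured genes (y axis), in vitro against untreated cells (left) and in co-culture against MC38 alone (right), where a filled point has an adjusted p under 0.05. In vitro, filled points are 1 for TNF, 5 for IFNG, 5 for supernatant and 6 for both cytokines, and in co-culture all 7 are filled for either antibody.

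How much each cytokine added in the presence of the other was tested directly. IFNG on top of TNF raised 5 of the 7 genes, beside 0.417% of all genes, by 3.13 ± 0.16 for Gbp7, 3.06 ± 0.17 for Gbp2, 2.89 ± 0.32 for Gbp2b, 2.53 ± 0.36 for Gbp4 and 2.52 ± 0.22 for Gbp3 on the log2 scale. The adjusted p-values were 4.47e-05, 5.88e-05, 0.00538, 0.0237 and 0.00136. When only the TNF group and the group with both cytokines were fitted, 2 of these 5 passed, Gbp2 and Gbp7. Gbp4 also missed the threshold under 8 further changes of the fit or of the libraries used, with adjusted p-values between 0.0503 and 0.176.

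TNF on top of IFNG raised none of the 7 genes at the threshold, beside 0.236% (30 genes) of all genes, although all 7 had both libraries with both cytokines above both IFNG libraries, as did 23.2% of all genes. The 30 genes became 270 without the first library with both cytokines and 12 without the first or without the second IFNG library. Before adjustment 4 of the 7 had a p under 0.05, as did 1707 of all 12720 genes. Gbp2b differed most among the well-detected members, by 1.98 ± 0.32 with a 95% interval from 1.26 to 2.71, or 3.96-fold (adjusted p = 0.0684). Its adjusted p was 0.0461 without the first TNF library, also 0.0461 without the second, and 0.0378 on a log2(CPM + 1) scale. Gbp3 differed by 1.21 ± 0.22 (adjusted p = 0.0874, and 0.0408 without the first library with both cytokines).

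Gbp2 differed by 0.69 ± 0.17 (adjusted p = 0.216), Gbp9 by 1.04 ± 0.46 and Gbp4 by 0.81 ± 0.36. For Gbp7 the difference was 0.30 ± 0.16 with an interval from −0.05 to 0.66. The median of the 7 differences was 1.04, against −0.0256 over all genes. Gbp7 and Gbp2b thus lay at opposite ends of the well-detected members, both without IFNG, at 0.38 and 2.39, and with it, at 0.30 and 1.98; the difference between genes was not tested.

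The interaction term asked whether the combined log2 change departed from the single changes added up. No member passed, beside 0.0157% (2 genes) of all genes, and none had a p under 0.05 before adjustment, as 500 of all genes did. The departures were 0.29 ± 0.25 for Gbp2, −0.40 ± 0.45 for Gbp2b, 0.27 ± 0.31 for Gbp3, −0.50 ± 0.51 for Gbp4, −0.07 ± 0.22 for Gbp7 and −0.43 ± 0.65 for Gbp9. The intervals were widest for the weakly detected genes, from −1.90 to 1.04 for Gbp9 and from −1.05 to 6.18 for Gbp8, and narrowest for Gbp7, from −0.57 to 0.43. Departures within these intervals cannot be told from additive log2 changes with 2 libraries per group.

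**Figure D4:**
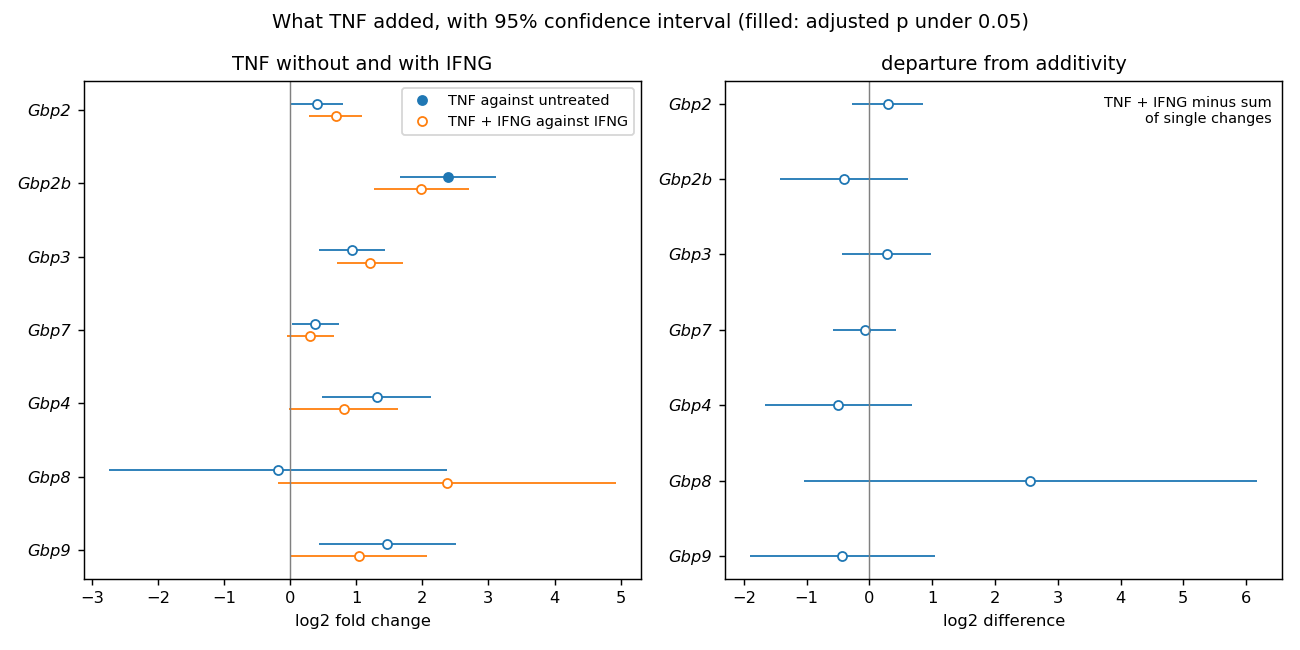
Left, the log2 difference made by TNF (x axis, with 95% confidence interval) in the 7 genes without IFNG (blue) and with it (orange), and right, the departure of the combined change from the sum of the single changes. Gbp2b has the largest difference among the 6 genes other than Gbp8 on the left in both settings, and every interval on the right includes 0.

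Supernatant of a co-culture raised 5 of the 7 genes, Gbp2, Gbp2b, Gbp3, Gbp4 and Gbp7, beside 0.448% of all genes. Gbp7 was at 6.96 and 6.99 log2 CPM and Gbp2 at 5.83 and 5.99, which is 10.5-fold and 7.86-fold above untreated cells (adjusted p = 2.11e-05 and 8.49e-05). Gbp2b was at 3.54 and 4.09, Gbp3 at 4.57 and 4.60 and Gbp4 at 3.56 and 3.49. Their log2 changes were 3.63 ± 0.32, 2.57 ± 0.22 and 3.44 ± 0.36, with adjusted p-values of 0.00083, 0.000793 and 0.00245. Gbp4 had an adjusted p of 0.0748 when only the supernatant and untreated groups were fitted.

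Gbp9 was at 1.94 and 2.11 log2 CPM with supernatant, a difference of 2.01 ± 0.46 (adjusted p = 0.234), and Gbp8 was at 0.16 and −0.84, about 11 and 4 reads (adjusted p = 0.864). Against IFNG, no member differed at the threshold, beside 0.00786% (1 gene) of all genes, and none had a p under 0.05 before adjustment, as 346 of all genes did. The differences ran from 0.14 for Gbp9 to 0.58 for Gbp8. For Gbp7 and Gbp2 the intervals reached from −0.17 to 0.54 and from −0.20 to 0.60, so larger log2 differences lay outside them.

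Against TNF with IFNG, supernatant gave lower values in all 7 genes, with no overlap between libraries, as in 20.8% of all genes, but no member passed the threshold, beside 0.236% (30 genes) of all genes. The 30 became 486 without the second supernatant library and 255 without the first library with both cytokines. Before adjustment, 3 had a p under 0.05, as did 2132 of all genes: Gbp2b at −1.65 ± 0.32 (adjusted p = 0.0944), Gbp3 at −0.88 ± 0.22 (adjusted p = 0.149) and Gbp2 at −0.49 ± 0.17 (adjusted p = 0.235). Without the second supernatant library, Gbp2b passed, at −1.92 with an adjusted p of 0.0428. Gbp7 differed by −0.12 ± 0.16. As no time is recorded for the supernatant, the comparisons with 6 h of cytokine may differ in duration.

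The order of the group means was untreated, TNF, IFNG, supernatant and then both cytokines for 6 of the 7 genes. In Gbp2, Gbp2b, Gbp3, Gbp4 and Gbp7, the libraries of each pair of neighbours in that order did not overlap. In Gbp9, TNF overlapped IFNG and IFNG overlapped supernatant. In Gbp8, TNF was the lowest, and only the step from supernatant to both cytokines was free of overlap. A rise without overlap was found in 21.5% of all genes from untreated to TNF and in 21.5% from TNF to IFNG. It was found in 14% from IFNG to supernatant and in 20.8% from supernatant to both cytokines. The share of all genes separated at every step was not computed, and the order was read from these same values, so the separation is a description only. From IFNG to supernatant no member had a p under 0.05, so the place of these 2 groups in the order is not shown to differ. Summed over the 7 genes, the level was 27.8 and 26.9 CPM in untreated cells, 39.5 and 51.6 with TNF, 204 and 208 with IFNG, 233 and 248 with supernatant, and 315 and 356 with both.

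OT1 T cells with the isotype antibody raised all 7 measured genes against MC38 alone, beside 13.9% of the 12707 genes tested, and so did OT1 T cells with anti-PD1, beside 16.1%. Both comparisons share the 3 libraries of MC38 alone. The median log2 changes of the 7 were 3.97 and 3.77, against −0.0558 and −0.0589 over all genes. Both medians are the changes of Gbp8, which met the filter only through the groups with OT1 T cells and was thus favoured by it. The other members ran from 1.98 (Gbp9) to 5.73 (Gbp2b) with isotype and from 1.93 to 5.48 with anti-PD1. In every gene, Gbp8 included, all 6 co-culture libraries lay above all 3 of MC38 alone, as in 10.9% of all genes. The T cell marker sum given above and Ifng, the gene of interferon gamma itself, moved with the same contrast. Ifng was at −1.63, −2.66 and 1.85 log2 CPM in MC38 alone, at 6.27, 6.51 and 6.66 with isotype and at 6.48, 6.49 and 6.54 with anti-PD1. Bulk RNA cannot tell more cells of a type from more RNA per cell, T cells can make guanylate binding proteins too, and the part of T cell RNA in these changes was not tested.

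Gbp4 was at 1.93, 1.52 and 1.75 log2 CPM in MC38 alone, at 7.43, 7.27 and 7.33 with isotype and at 7.30, 7.04 and 7.05 with anti-PD1. Its replicates were tight in every group, and it rose 48.9-fold with isotype (log2 change 5.61 ± 0.14, adjusted p = 6.31e-09) and 42.1-fold with anti-PD1 (5.40 ± 0.14, adjusted p = 9.34e-09). Gbp2b was at 3.07, 3.28 and 1.95 log2 CPM in MC38 alone, at 8.49, 8.64 and 8.36 with isotype and at 8.31, 8.40 and 8.04 with anti-PD1. Library 3 of MC38 alone, the lowest, widened the control group. Gbp2b had the largest change of the family, 53.0-fold with isotype (log2 change 5.73 ± 0.29) and 44.8-fold with anti-PD1 (5.48 ± 0.29), which ranked 12th and 14th of all genes. Without that library its changes were 5.32 and 5.07, below those of Gbp4 at 5.62 and 5.41.

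Gbp2 was at 3.03, 3.41 and 3.72 log2 CPM in MC38 alone, 8.40, 8.66 and 8.40 with isotype, and 8.60, 8.34 and 8.32 with anti-PD1. The rises were 34.4-fold and 32.8-fold (adjusted p = 4.52e-08 and 4.69e-08). Gbp7 was at 5.62, 5.63 and 5.72 in MC38 alone, 8.86, 8.92 and 8.90 with isotype, and 8.73, 8.72 and 8.56 with anti-PD1. Its rises of 3.24 ± 0.09 and 3.01 ± 0.09 on the log2 scale had the smallest errors of the 7.

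Gbp3 was at 3.47, 3.69 and 4.57 log2 CPM in MC38 alone, 7.15, 7.26 and 7.10 with isotype, and 7.29, 6.99 and 7.13 with anti-PD1. It rose 9.57-fold and 9.33-fold. Gbp9 was at 2.88, 3.20 and 4.20 in MC38 alone, 5.42, 5.51 and 5.29 with isotype, and 5.56, 5.15 and 5.36 with anti-PD1, with the smallest rises of the family at 3.95-fold and 3.82-fold (adjusted p = 0.00121 and 0.00135). In both genes the third library of MC38 alone was the highest of its group.

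Gbp8 was at −1.29, −1.63 and 0.03 log2 CPM in MC38 alone, at 3.09, 3.18 and 2.75 with isotype and at 2.51, 2.95 and 2.97 with anti-PD1. The control values correspond to 1 or 2 reads per library and the co-culture values to 38 to 85, so the size of the rise rests on very few control reads. The log2 changes were 3.97 ± 0.42 (95% interval 3.04 to 4.90) and 3.77 ± 0.42 (2.85 to 4.70), with adjusted p-values of 0.000139 and 0.000206.

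The third library of MC38 alone was the highest of its group for Gbp2, Gbp3, Gbp7, Gbp8 and Gbp9, the lowest for Gbp2b, the one with the highest T cell marker sum and the shallowest. Without it all 7 genes still passed in both comparisons, with log2 changes of 2.37 (Gbp9) to 5.62 (Gbp4) for isotype and 2.32 (Gbp9) to 5.41 (Gbp4) for anti-PD1. Leaving out the third anti-PD1 library or the second isotype library also left all 7 above the threshold. Without the anti-PD1 library whose labels conflict, the changes with anti-PD1 against MC38 alone ran from 1.93 for Gbp9 to 5.59 for Gbp2b. Without the second isotype library, the changes with isotype ran from 1.93 for Gbp9 to 5.66 for Gbp2b.

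**Figure D5:**
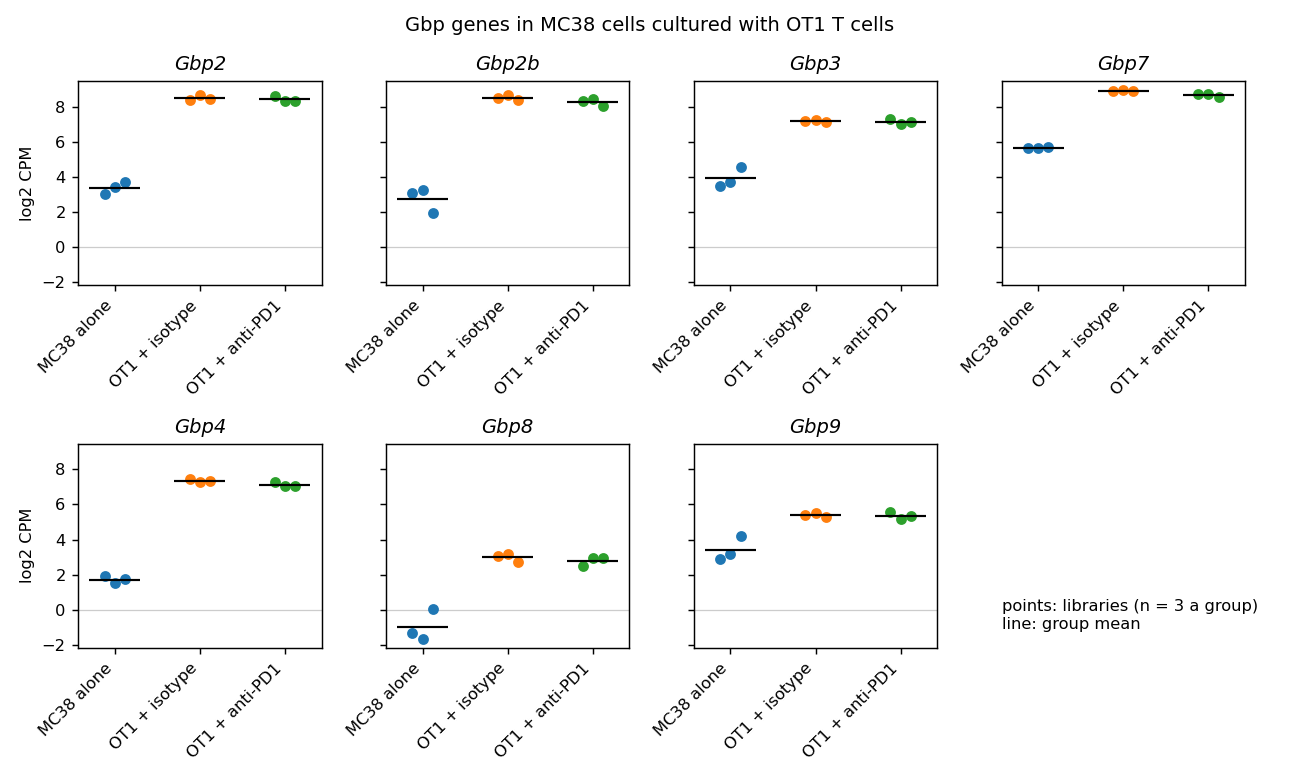
Log2 CPM (y axis) of the 7 measured genes in each co-culture library, by group (x axis), with points for libraries (n = 3 a group) and a line at the group mean. In every panel the 6 co-culture libraries lie above the 3 of MC38 alone, and the 2 antibody groups overlap except in Gbp7.

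Anti-PD1 against the isotype control changed none of the 7 genes, and 0% of the 12707 genes tested passed in limma, while 347 genes, Gbp7 among them, had a p under 0.05 before adjustment. All 7 means were lower with anti-PD1, by 0.04 (Gbp3) to 0.24 (Gbp2b) on the log2 scale, and the libraries of 6 genes overlapped. In Gbp7 all 3 anti-PD1 libraries lay below all 3 isotype libraries, as in 5.84% of all genes, with a difference of −0.22 ± 0.09 and a 95% interval from −0.43 to −0.02. Without the third anti-PD1 library this difference was −0.17. The intervals were −0.52 to 0.09 for Gbp4, −0.45 to 0.32 for Gbp2, −0.57 to 0.49 for Gbp3, −0.68 to 0.58 for Gbp9, −0.89 to 0.40 for Gbp2b and −1.13 to 0.73 for Gbp8. A rise of 1 log2 unit or more with anti-PD1 thus lay outside the interval of every member. The summed level of the 7 genes was 1527, 1653 and 1488 CPM with isotype, 1498, 1387 and 1281 CPM with anti-PD1, and 88.6, 95.2 and 116 CPM in MC38 alone.

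Other interferon-induced GTPases, the immunity related GTPases and related large GTPases, were followed as a list of 11 genes. With IFNG, 8 of the 10 tested rose and none fell, with 9 of 10 for both cytokines, 8 of 10 for supernatant and none for TNF, where 3 had a p under 0.05 before adjustment. The shares of all genes passing were 0.354%, 9.02%, 0.448% and 0.275%, in that order. The median log2 change with IFNG was 4.58, against 0.0446 over all genes. In co-culture 11 of 11 rose with either antibody, beside 13.9% of all genes passing with isotype and 16.1% with anti-PD1. Iigp1, Tgtp1 and Tgtp2, which guard against vacuolar parasites, rose with IFNG by 5.42 ± 0.36, 5.32 ± 0.24 and 5.14 ± 0.24 on the log2 scale. Tgtp1 and Tgtp2 are near-identical copies, so the split of reads between them is uncertain. TNF added to IFNG gave a median difference of −0.20 in this list, where the 7 guanylate binding protein genes had 1.04. No gene of either list passed there, beside 0.236% of all genes, and the difference between the lists was not tested. Of the 7, Gbp8 met the filter only through the group with both cytokines. For Iigp1 the difference was −0.36 ± 0.36. With TNF alone, the median difference of the list was 0.30, with 7 of the 10 genes higher and 3 lower. Iigp1 had the lowest difference of the list, −1.68 ± 0.36 (adjusted p = 0.18). It was at −1.30 and 0.01 log2 CPM with TNF against 1.01 and 1.06 in untreated cells.

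A further list held 13 genes of interferon gamma signalling and its regulation, among them the inhibitor gene Socs1 and the NF-kB genes Nfkb1 and Rela. Of these, 4 rose with IFNG, 1 with TNF, 8 with both and 5 with supernatant. The shares of all genes passing were 0.354%, 0.275%, 9.02% and 0.448%, and none of the 13 fell. Their median log2 change with IFNG was 0.54. Stat2, a transcription factor gene of the interferon pathway, rose by 2.65 ± 0.18 with IFNG, and Irf9, whose protein binds STAT2, rose by 1.81 ± 0.16. Irf1 rose with TNF as well, by 2.47 ± 0.12 (adjusted p = 6.21e-05), by 3.06 ± 0.12 with IFNG and by 3.44 ± 0.12 with both. Its interaction term of −2.08 ± 0.17 passed the threshold in the main limma fit (adjusted p = 0.00492), beside 0.0157% (2 genes) of all genes. In that fit the rise with both was thus smaller than the sum of the single rises on the log2 scale. Without the intensity trend no negative interaction term passed, so the call depends on this setting. In co-culture 11 of the 13 rose with isotype, beside 13.9% of all genes passing. With anti-PD1 12 rose and 1 fell, the kinase gene Jak1, beside 16.1% of all genes passing. Irf1 rose there by 3.35 ± 0.11 with isotype.

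Of 6 enzymes of the lipid modification that anchors CaaX-ended proteins such as Gbp2 and Gbp2b, none rose with any in vitro treatment, and at most 2 per treatment had a p under 0.05 before adjustment. Their median log2 change was −0.03 with IFNG and 0.14 with both cytokines. The protease gene Rce1 fell by 1.46 on the log2 scale (SE 0.30, adjusted p = 0.0286) with both cytokines. Of all genes, 0.354% passed with IFNG, 0.275% with TNF, 0.448% with supernatant and 9.02% with both. Among 6 genes these counts are near those shares and are not read as a result about the list. In co-culture 1 of the 6 rose with either antibody, Pggt1b, a subunit of a prenyltransferase (1.14 ± 0.22 and 1.00 ± 0.22), a share near the 13.9% and 16.1% of all genes that passed. Of 21 genes for partners of these proteins in defence against microbes, 18 were tested in vitro. None passed with IFNG, TNF or supernatant, beside 0.354%, 0.275% and 0.448% of all genes, so this is not read as a result about the list. Before adjustment 6, 2 and 4 had a p under 0.05, as did 1361, 797 and 652 of all 12720 genes. The median log2 change of the 18 was 0.18 with IFNG and 0.13 with both cytokines. With both cytokines 3 rose and 1 fell, beside 607 and 540 of all 12720 genes. Those that rose were Casp4, which encodes caspase-11 (1.45 ± 0.28, adjusted p = 0.0258), Gsdmd, which encodes gasdermin D (1.27 ± 0.23, adjusted p = 0.0229), and Sqstm1, the autophagy adaptor p62 (0.73 ± 0.15, adjusted p = 0.0268). The autophagy gene Atg16l1 fell by 0.57 on the log2 scale (SE 0.15, adjusted p = 0.0468). This comparison called 1147 of all genes in the main fit and 143 when only its 2 groups were fitted. Whether Casp4, Gsdmd, Sqstm1, Atg16l1 and Rce1 still passed in the smaller fit is not reported here. In co-culture 7 of 19 rose with isotype and 6 with anti-PD1, and with either antibody 2 autophagy genes fell, Atg12 and Map1lc3b. Of all 12707 genes, 971 rose and 790 fell with isotype, and 1070 rose and 980 fell with anti-PD1. The 2 falls are therefore not read as a result about the list. Irf9, Jak1, Pggt1b, Atg16l1, Atg12 and Map1lc3b are named here after their values were seen. Casp4 rose by 2.55 ± 0.22 and 2.67 ± 0.22 there, Gsdmd rose by 1.98 ± 0.51 with isotype and was 1.61 ± 0.51 higher with anti-PD1 (adjusted p = 0.058), and Sqstm1 was 0.11 ± 0.12 and 0.18 ± 0.12 higher, with neither past the threshold.

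Among the members themselves, Gbp2 and Gbp7 were most alike in vitro, with a Pearson correlation of 0.99 over the 10 libraries, and Gbp8 was least like the others, with 0.80 to Gbp4 as its highest. Among genes outside the family, those closest to the mean standardised profile of the 7 were Ifi205 (0.98), Ifi211 (0.98), Olfr56 (0.97), Serpina3g (0.97) and Parp9 (0.96), and 81 genes had a correlation above 0.9. In co-culture, over 9 libraries, the closest were Ifi205, Ifi211, Iigp1, Igtp and Mndal, each at 0.998 or above after rounding, and 617 genes lay above 0.9. These correlations describe libraries that share groups, normalization and depth, and in co-culture they mainly separate MC38 alone from the other 2 groups.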

How the data were processed

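RNA of 19 MC38 libraries was analysed, 2 per group in vitro and 3 per group in co-culture. Groups came from the labels, and 0 table columns were left without a sample. The libraries were made with a QuantSeq 3′ kit, per the labels' protocols. Per the submitters' processing notes, the tools include HISAT2, featureCounts, limma, Subread, cutadapt 1.7 and FastQC, and the build was GRCm38 (mm10). For the strand setting of the counting, the sources used here give nothing. The values the authors deposited are on a log2 CPM scale, a unit read from the values themselves. On the linear scale they add up to nearly the same total in each library. Exact values also recur across libraries of different depth, so a normalization beyond scaling to one total had been applied. The authors normalized each table separately, and a shift of most transcripts together cannot be seen in such values. Depth was estimated from the steps between low values, so numbers of reads are approximate.

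For each table, 1 limma model (version 3.58.1, R 4.3.3) with an intensity trend covered every group. Residual degrees of freedom were 5 in vitro and 6 in co-culture, to which the prior added 3.74 and 4.12. Genes entered the test when enough libraries to fill the smallest group reached a log2 value of 0. All 7 members with a row passed in both tables. Gbp8 did so in vitro only through the group with both cytokines, and in co-culture only through the groups with OT1 T cells. Its being high in those groups was thus favoured by the filter. P-values are 2-sided, adjusted over all genes tested, with a threshold of 0.05, and intervals are at 95%. The test was checked on simulated data. The members and the gene lists were chosen with earlier results of these data known, so the list counts are descriptions. All members were named. Of the lists, the 3 genes with the largest change per list among those past the threshold with IFNG or both cytokines were named, with Irf1, and the 5 genes most correlated with the members' mean profile. One further gene that this rule names is not reported here. Alternatives changed the trend, library weights, filter, log scale, groups fitted, replicate block and libraries used.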

Additional observations from a re-analysis of the deposited data

How the results depend on the processing

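No member changed direction past a threshold under any alternative run. Of 575 member values with another setting, 561 kept their side of the threshold, 11 lost it and 3 gained it, and of 819 values with 1 library left out, 801 kept it, 14 lost it and 4 gained it. The count of members called with TNF fell from 1 to 0 without the intensity trend (Gbp2b adjusted p = 0.0645), on the log2(CPM + 1) scale (0.0564) and with only the compared groups, and ranged from 0 to 1 with a library left out. For TNF with IFNG against IFNG, the count was 1 in place of 0 on the log2(CPM + 1) scale and 0 to 1 with a library left out. Against TNF it was 2 in place of 5 with only the compared groups fitted. For supernatant against TNF with IFNG it ranged from 0 to 1 with a library left out. Gbp9 passed with IFNG under library weights (adjusted p = 0.0427), and Gbp8 passed with both cytokines on the log2(CPM + 1) scale (0.0249). The cause of these shifts was not tested.

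Correlations of the deviations of same-numbered libraries ran from −0.287 to 0.0941 over 20 pairs in vitro. In co-culture they ran from −0.0541 to 0.109 over 9 pairs. The 2 deviations of an in vitro group mirror each other, so each value there occurs in 2 of the 20 pairs. No pairing by number was seen, but these correlations cannot exclude a shared culture or batch. With the replicate block, IFNG added to TNF gave 4 members called in place of 5 (Gbp4 adjusted p = 0.0615), and no other member changed side. Depth limits Gbp8 most, since its untreated and TNF values in vitro and its values in MC38 alone rest on 0 to 3 reads per library. With 2 libraries per group in vitro, changes near the threshold, such as those of Gbp2b with TNF and Gbp9 with both cytokines, depend on single libraries.

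The number of all genes called moved more than that of the members. With a library left out it ran from 11 to 41 for TNF (35 with all libraries), from 29 to 50 for IFNG (45), from 88 to 2165 for both cytokines (1147), from 37 to 256 for IFNG added to TNF (53), from 12 to 270 for TNF added to IFNG (30), from 12 to 486 for supernatant against both cytokines (30), from 0 to 12 for supernatant against IFNG (1), from 0 to 9 for the interaction (2), from 1008 to 2218 for isotype (1761) and from 1227 to 2565 for anti-PD1 (2050). When the other groups were left out of the fit, 61 genes were called for TNF, 488 for IFNG, 143 for both cytokines, 36 for supernatant (57 with all groups), 16 for IFNG added to TNF, 3 for TNF added to IFNG, 4 for supernatant against both cytokines and 1282 for anti-PD1. Library weights gave 72 for TNF, 297 for IFNG, 656 for both cytokines and 6 for supernatant against both. Without the intensity trend, TNF had 18 and both cytokines 467, and with the replicate block both cytokines had 594, TNF added to IFNG 19 and supernatant against both 16.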
